A study of Nicotiana tabacum with 4 samples.

Results

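In young primary leaves of tobacco, Nicotiana tabacum, 71 gene models were almost without reads in wild-type (WT) plants and clearly read in plants carrying Wov, a gene of tomato. They were chosen from a table of 50705 gene models by abundance alone. A member had at least 5 CPM (reads of the model per 1000000 reads of its library) in both Wov libraries and under 1 CPM in both WT libraries. The members were 0.140% of all gene models.

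RNA-seq was made from 4 libraries, 2 labelled as Wov transgenic and 2 as wild-type, all from plants labelled mature. The sources used here do not give the promoter that drives the transgene, the number of transgenic lines, or whether libraries of a genotype came from separate plants. Any p-value therefore measures only the spread between these libraries, and that spread may be partly technical. Library totals ran from 9126074 reads in Wov 1 to 11736154 in WT 1. The WT libraries were the most alike, with a correlation across genes (Pearson, log2 CPM) of 0.92, and the Wov pair correlated at 0.88. Wov 2 correlated at 0.89 and 0.87 with WT 1 and WT 2, and Wov 1 at 0.77 and 0.84, so Wov 1 stood farthest from the wild type. Wov 2 was closer to WT 1 than to Wov 1, so by this measure the libraries did not group by genotype.

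Woolly, the tomato gene of which Wov is an allele, codes for a transcription factor of the HD-ZIP IV class (homeodomain-leucine zipper), a plant family that acts in the epidermis. It is known for promoting multicellular trichomes, the hairs of the leaf and stem surface, many of which end in a gland that makes and stores secondary metabolites. Tobacco is an allotetraploid that carries related gene copies from its ancestral species, and reads may be shared between near-identical copies. The deposited tables give only numbered IDs. In the RefSeq gene table for assembly ASM71507v2, which lists 79372 genes, 0 of the 50705 were found under any identifier or symbol. No role, sequence, position or list of related genes can therefore be given for a member, and the leaf label was not checked against marker genes. The introduced tomato gene itself was not analysed here. Whether any of its reads were counted under a tobacco gene model, a member included, was not tested.

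The members took up a small part of the transcriptome. Together they held 10499 reads in Wov 1 and 8679 in Wov 2, against 318 in WT 1 and 293 in WT 2. As a share of each library, with its 95% exact interval, this was 0.115% (0.113 to 0.117) in Wov 1 and 0.0803% (0.0786 to 0.0820) in Wov 2. In the WT libraries it was 0.00271% (0.00242 to 0.00302) and 0.00264% (0.00234 to 0.00296). Both Wov shares lay far above both WT shares, as the rule requires. The WT libraries were level with each other, while Wov 1 held more than Wov 2. These intervals cover counting error only, since reads without molecular identifiers are not independent molecules. In whole-leaf RNA, fewer cells of a type and less RNA per cell cannot be told apart.

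**Figure D1:**
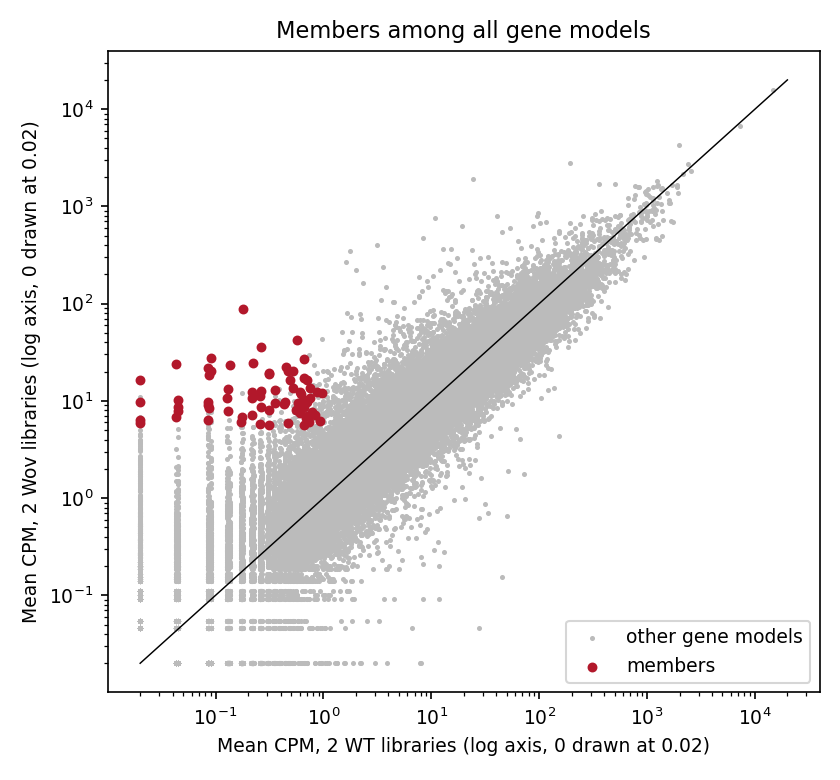
Mean CPM of every gene model with a read, in the 2 Wov libraries (vertical) against the 2 WT libraries (horizontal), on log axes with 0 drawn at 0.02. The 71 members (red) lie left of 1 CPM in WT and above 5 CPM in Wov, away from the line of equal values, with Wov means from 5.66 to 87.2 CPM and a median of 10.1.

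The members are few among the models that were near-silent in the wild type. A total of 12211 models had under 1 CPM in both WT libraries, of which 2578 had no read in any of the 4 libraries. Most of them, 10036, also stayed under 1 CPM in both Wov libraries. At least 1 CPM in both Wov libraries was reached by 828, and the 71 members were 0.581% of the 12211. With the genotypes exchanged, 22 models had at least 5 CPM in both WT libraries and under 1 CPM in both Wov libraries, 0.194% of the 11358 models under 1 CPM in both Wov libraries. These counts follow from the rule and were not tested. Of the 21905 models at 5 CPM or more in both Wov libraries, 19496 were also at 5 CPM or more in both WT libraries, so the members were a minor addition (0.324%) to the models well read in Wov leaves.

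Levels in Wov were modest for most members. In Wov 1 the members ran from 5.04 to 83.7 CPM with a median of 11.1, that is from 46 to 764 reads. In Wov 2 they ran from 5.09 to 90.6 CPM with a median of 8.32, or 55 to 980 reads. By the lower of its Wov values, 49 members lay between 5 and 10 CPM, 19 between 10 and 20, and 3 at 20 or more. A single member was above 50 CPM in both Wov libraries. The 5 members with the highest mean Wov CPM held 22.6% of the members' reads in Wov 1 and 22.2% in Wov 2.

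**Figure D2:**
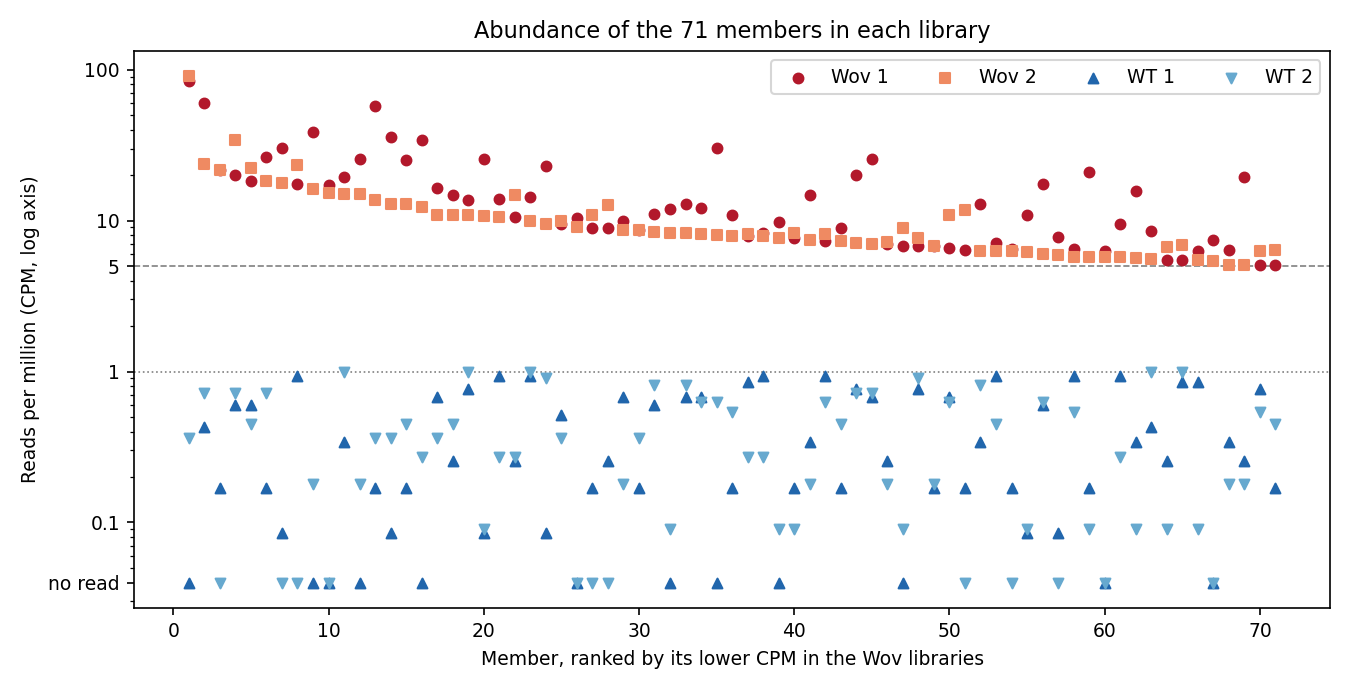
CPM of each member in each library, on a log axis, with members ranked by the lower of their Wov values and the limits of the rule at 5 CPM (dashed) and 1 CPM (dotted). The Wov points fall from about 83.7 CPM to just above 5, whereas the WT points scatter between no read and 0.990 CPM along the whole rank order.

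In the wild type the members ranged from no read to 11 reads in a library. The median was 3 reads in WT 1 and 3 in WT 2, or 0.256 and 0.270 CPM. No read at all was found for 4 members in either WT library, 16 had none in exactly 1 of them, and 51 had at least 1 read in both. Over both WT libraries together, 42 members had at most 10 reads, and the highest sum was 22. WT 1 was the higher WT library for 32 members and WT 2 for 35. With so few reads the WT level is known only loosely: the upper end of the 95% Poisson interval of the pooled WT level was under 1 CPM for 50 of the 71. A count of 0 allows up to 3 reads, 0.256 CPM in WT 1 and 0.270 CPM in WT 2, so silence in the wild type is not shown for any member.

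Most members were more than 10-fold higher in Wov by pooled reads. The ratio of pooled CPM, Wov over WT, could be formed for the 67 members with a WT read and ran from 6.77 to 537 with a median of 34.9. With the 4 others set at a floor of 3 reads over both WT libraries, the median over the 71 was 38.7. The ratio was under 10 for 7 members, from 10 to 50 for 35 and at least 50 for 25. Its 95% exact interval began above 10 for 47 of the 67, and the lowest such limit was 4.24. The smallest ratio, 6.77 (4.24 to 11.3), was that of a member with 50 reads in Wov 1, 74 in Wov 2, 10 in WT 1 and 11 in WT 2. The rule chose members on these same values, so the ratios describe them and support nothing.

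The member with the highest lower Wov value, by a wide margin, was gene_80918. It had 764 reads in Wov 1 and 980 in Wov 2, and none in WT 1 and 4 in WT 2. This was 83.7 and 90.6 CPM in the Wov libraries, or 87.2 ± 4.89 CPM (SD, n = 2), against 0 and 0.360 CPM in the WT libraries, or 0.180 ± 0.255 CPM (SD, n = 2). The Wov libraries were close to each other and far above the WT libraries, with a pooled ratio of 500 (195 to 1836). Its length was 2082 bases. The next member by this measure was much lower and uneven, at 59.8 CPM in Wov 1 and 23.8 CPM in Wov 2.

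Among the 4 members with no WT read, gene_15828 had the highest lower Wov value. It held 158 reads in Wov 1 and 164 in Wov 2, which is 17.3 and 15.2 CPM or 16.2 ± 1.52 CPM (SD, n = 2), and 0 reads in each WT library. Against the floor of 3 reads over both WT libraries it was 123-fold higher in Wov. The exact 95% interval of its pooled ratio began lower, at 99.4. Its length was 462 bases. The other members with no WT read had 95 and 98, 57 and 62, and 68 and 58 reads in Wov 1 and Wov 2. Against the same floor they were 73.7-fold, 45.5-fold and 48.1-fold higher, and their intervals began at 59.4, 36.4 and 38.6. For each of the 4 the CPM in Wov 1 was the larger, by less than 1.5-fold.

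Per length, the median member in Wov leaves stood below the middle of the models well read there, though many members stood above it. The deposited FPKM divides CPM by gene length in kilobases. Whether that length includes introns was not checked, and it reached 88796 bases among models with at least 5 CPM in both Wov libraries. In Wov 1 the median member stood at 6.86 FPKM, against a median of 8.34 FPKM over the 21905 models with at least 5 CPM in both Wov libraries, and 29 of 71 members were above that. In Wov 2 the medians were 5.94 and 8.56 FPKM, with 20 members above. On the mean of the Wov libraries, 23 members exceeded 10 FPKM, and in WT 60 members had a mean under 0.5 FPKM. The highest mean per length, 43.2 FPKM in Wov, belonged to a model of 557 bases with 54.3 FPKM in Wov 1 and 32.0 in Wov 2. It had a single WT read, a pooled ratio of 537 (96.0 to 21270). By FPKM gene_80918 came next with a mean of 41.9, at 40.2 in Wov 1 and 43.5 in Wov 2, and these levels overlap with those of the model before it. The mean of gene_15828, 35.2 FPKM, was the fifth. The lowest was 0.582 FPKM, for the longest member.

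Members were shorter than other models well read in Wov. Their median length was 1670 bases, with quartiles of 973 and 2910 and a range from 336 to 18273. Over all models with at least 5 CPM in both Wov libraries the median was 2304, with quartiles of 1441 and 3776. Under 1000 bases were 19 members, 26.8%, against 11.3% of those models, and over 5000 bases were 5 members, 7.04%, against 14.8%. The 22 models with the reverse pattern had a median of 1449 bases. A set of 152 models lay more than 4-fold higher in both Wov libraries than in either WT library but had at least 1 CPM in both WT libraries, and its median was 1822 bases. CPM is not scaled by length, so a short model meets a limit of 1 CPM more easily than a long one and a minimum of 5 CPM less easily. The part of this in the lengths was not tested. With the same limits set on FPKM, 56 models were chosen, of which 32 were members, 45.1% of the 71 and 57.1% of the 56. Their median length was 1175 bases, against 1673 over the 14006 models at 5 FPKM or more in both Wov libraries.

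**Figure D3:**
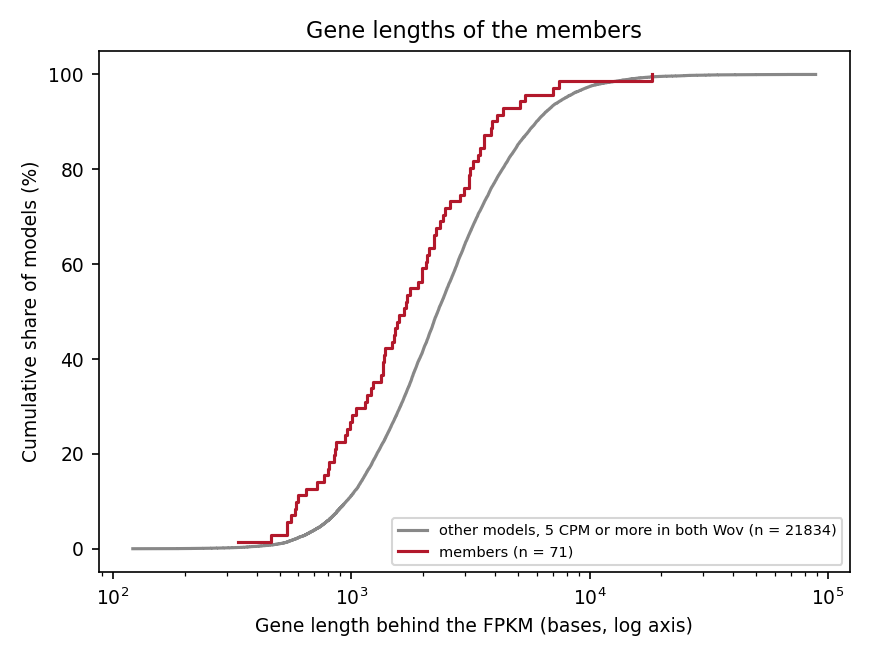
Cumulative share of models (%) by gene length in bases on a log axis, for the 71 members (red) and the other 21834 models with at least 5 CPM in both Wov libraries (grey). The red curve lies to the left of the grey one over most of its course, with medians of 1670 bases for the members and 2304 for all models at 5 CPM or more in both Wov libraries.

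The members were not equally high in the 2 Wov libraries. Wov 1 was the higher one for 50 of 71 members (70.4%), against 49.6% of the 21905 models with at least 5 CPM in both Wov libraries. The median ratio of Wov 1 to Wov 2 was 1.27, and the median log2 ratio 0.35 against -0.0068 over those models. TMM scaling and DESeq2 size factors each gave 50 members and a median log2 ratio of 0.35. At least 2-fold apart were 15 members (21.1%), where 16.7% of those models were as far apart. All 15 were higher in Wov 1 and 0 in Wov 2, while the same models were 2-fold higher in Wov 1 in 7.83% and in Wov 2 in 8.85% of cases. The member most uneven in this direction had 57.6 CPM in Wov 1 and 13.7 in Wov 2, a ratio of 4.21. The most uneven in the other direction had 6.36 and 11.7 CPM, a ratio of 0.541.

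Counting error alone covers the difference between the Wov libraries for 33 members, whose exact 95% interval of the ratio held equality. It did not for 32 members higher in Wov 1 and 6 higher in Wov 2. As shares of the members these are 46.5%, 45.1% and 8.45%, beside 35.8%, 31.6% and 32.6% of the 21905 models with at least 5 CPM in both Wov libraries. Such intervals are wider where reads are fewer, and these shares were not matched for read number. A like lean was seen outside the members. Of the 152 models more than 4-fold higher in Wov with at least 1 CPM in both WT libraries, 69.7% were higher in Wov 1, with a median log2 ratio of 0.35. Wov 1 is also the library that stood farthest from the wild type over all genes, and its part in the lean was not tested.

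**Figure D4:**
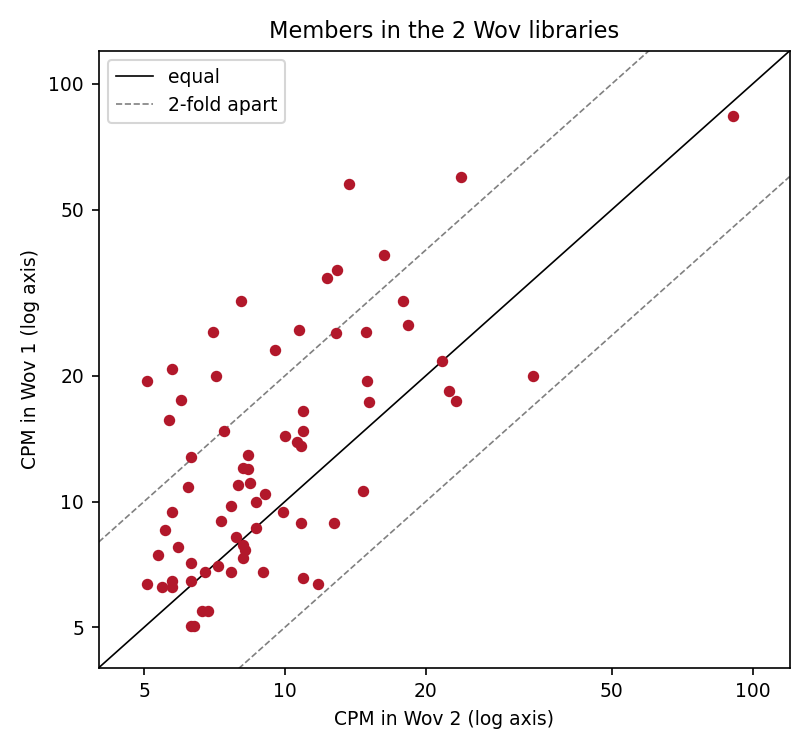
CPM of the 71 members in Wov 1 (vertical) against Wov 2 (horizontal) on log axes, with the line of equal values and dashed lines 2-fold to either side. The points above the upper dashed line are the 15 members at least 2-fold higher in Wov 1, and none lies below the lower dashed line.

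Each Wov library on its own would have chosen a different number. Under 1 CPM in both WT libraries and at least 5 CPM in Wov 1 were 199 models, of which the members are 35.7%. In Wov 2 there were 88 such models, of which the members are 80.7%. Of the 128 models that reached 5 CPM in Wov 1 alone, 112 had between 1 and 5 CPM in Wov 2 and 16 had less than 1. Of the 17 that reached it in Wov 2 alone, 15 had between 1 and 5 CPM in Wov 1 and 2 had less. Most models that missed the rule through a single Wov library were therefore read there at a lower level.

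The limits cut through a continuous range of values. The lowest Wov values inside were 5.04, 5.04 and 5.09 CPM, and the nearest outside were 4.99, 4.90 and 4.90 CPM. Between 5 and 6 CPM in the lower Wov library lay 15 members, and 32 models near-silent in WT lay between 4 and 5. The highest WT value inside was 0.990 CPM, shared by 5 members, and the nearest outside was 1.02 CPM, shared by 5 models. Between 0.8 and 1 CPM in the higher WT library lay 19 members, and 18 models at 5 CPM or more in Wov lay between 1 and 1.2.

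Over all genes, the difference between the genotypes was fitted with edgeR's quasi-likelihood test on 38981 models that passed the filter on low counts, with Benjamini-Hochberg adjustment. All 71 members passed that filter, which their Wov reads alone ensure. At an adjusted p under 0.05, 0 of 71 members were called, and so were 0.0% of all models. The members' adjusted p ran from 0.0771, the smallest of any model, to 0.192. An adjusted p under 0.1 was found for 152 of the 38981 models, and 46 of the 71 members were among them. An unadjusted p under 0.05 with a higher level in Wov was found for 71 of 71 members and for 8.04% of all models. The members were chosen on this contrast and had to differ in it, so nothing is read from their count.

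The call depended on the test. DESeq2's Wald test called 69 of 71 members at an adjusted p under 0.05, where it called 2.32% of 41595 models as higher in Wov. The 2 members it did not call had all their WT reads in a single library, 11 in WT 1 for the first and 7 in WT 2 for the second. Their adjusted p in this test was 0.159 and 0.115. In all, 16 members had WT reads in only 1 library, and the rest of these were called. The edgeR exact test called 71, where it called 2.98% of models as higher. By the quasi-likelihood test gene_80918 had a log2 fold change of 8.81 (SE 0.84) and an adjusted p of 0.0771, and gene_15828 had an adjusted p of 0.0771. With Wov 1 left out the quasi-likelihood test called 47 members, and 0.377% of models as higher. With Wov 2 left out it called 68, and 3.14% of models. Without WT 1 it called 0 (0.0% of models) and without WT 2 it called 1 (0.00247%). With no filter on low counts it called 51 members and 0.295% of models. On FPKM, limma called 29 members and 0.208% of models with a pseudocount of 1, and 43 members and 0.331% with one of 0.1.

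A set of 471 models had both Wov libraries more than 4-fold above both WT libraries on log2 CPM with a prior count of 2. All 71 members belonged to this set and made up 15.1% of it. The limits that chose the members, 5 CPM and 1 CPM, are themselves more than 4-fold apart. Their place in the set therefore follows from the choice, and nothing is read from it. A gap of more than 16-fold was found for 32 members, 45.1% of the 71. These were 51.6% of the 62 models with such a gap. The rule does not force so wide a gap, but its shares rest on values used in the choice and were not tested.

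The members were sparse among the ID numbers. ID numbers ran from 1 to 85570, and the sources used here do not say what their order stands for. Members were spread over the whole numbering, with a median distance of 906 numbers from each to the next. No member (0) had an adjacent number that was also a member, and at such distances nothing is read from this. With the numbers cut into 4 equal ranges, the ranges held 18, 19, 14 and 20 members, and 25.7%, 25.8%, 22.8% and 25.7% of all models. The tables held 116 models numbered directly before or after a member. Of these, 80 were tested, with a median log2 fold change of -0.065, 47.5% of them above 0 against 49.4% of all tested models, and 0 were in the set 4-fold higher in Wov, which holds 1.21% of all tested models. Within 20 numbers of each other lay 4 pairs of members. The closest were 3 numbers apart and had 19.4 and 5.09 CPM, and 30.2 and 8.05 CPM, in Wov 1 and Wov 2, with ratios of Wov 1 to Wov 2 of 3.81 and 3.76. In a pair 9 numbers apart these ratios were 1.13 and 1.45, with 17 and 10 WT reads. In another pair 9 numbers apart they were 1.75 and 1.97, with 2 and 7 WT reads. The pair 11 numbers apart was gene_15828 and the 557-base model with the highest level per length, with ratios of 1.14 and 1.69 and 1 WT read together. The pairs were looked up with the members' values in view and without a background share, so they are only described.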

How the data were processed

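RNA-seq was deposited for 4 tobacco leaf libraries, grouped by the genotype label. Per the submitters' processing notes reads were aligned with TopHat. The sources used here do not give its version, the counting program, genome build, gene models or strand. The authors deposited whole-number read counts per gene model and a table of FPKM. All 181596 FPKM above 0 equalled count, length and library total combined, within a relative tolerance of 1e-04, so the deposited FPKM are no independent measurement and gave the gene lengths.

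Members were chosen by CPM from library totals. The fit used edgeR 4.0.16 under R 4.3.3 on the whole table (2 libraries per genotype, default filter, TMM, robust quasi-likelihood test, two-sided). Tested on simulated data, it called nearly all of the large changes and few of the small ones, with some false calls. The changed models there had a mean of at least 5 CPM, and the libraries were drawn independently. The outcome therefore does not carry over to these data, where the fit called 0 members. DESeq2 1.42.0, limma 3.58.1 (FPKM on the log2 scale, pseudocount 1 or 0.1), other scalings, filters and limits, a replicate block and each library left out were alternatives. Intervals are exact at 95%. At most 2 IDs are named, because IDs carry no names: the member with the highest lower Wov CPM, and the same among members with no WT read. Other members are described by rank, after their values were seen. Planned gene lists could not be matched. The members and lists were chosen with earlier results of these data known. No column was left unused (0).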

Additional observations from a re-analysis of the deposited data

How the results depend on the processing

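The number of members depended on the limits. It was 62 with TMM scaling, 67 with DESeq2 size factors and 56 on FPKM, within 1.5 times of 71. It became 22 with a Wov minimum of 10 CPM, 304 with one of 2 CPM, 37 with a WT limit of 0.5 CPM and 161 with one of 2 CPM. Leaving out each library gave 88 to 199 models, since fewer libraries have to meet the limits: 88 without Wov 1, 199 without Wov 2, 169 without WT 1 and 131 without WT 2.

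The number of members called at an adjusted p under 0.05 was 0 in the edgeR quasi-likelihood fit, with DESeq2 size factors, with library totals, with the stricter filter and with the replicate number as a block (replicate block, 0). DESeq2 called 69, the edgeR exact test 71, and the unfiltered fit 51. Limma called 29 with a pseudocount of 1 and 43 with one of 0.1. The count was 0 to 68 when each library was left out, where the single remaining library of a genotype is taken to vary as the other genotype's do. The cause was not tested. The main fit used no pairs, and the replicate numbers served only in the replicate block given above. Deviations of same-numbered libraries correlated at -0.49. The crossed pairing of the libraries, used as a block and added after the data were seen, gave 71 calls (7.43% of models higher). It groups the libraries whose deviations that correlation puts together, so the block takes out spread seen in these same data. No label pairs the libraries in this way, and nothing is read from these calls. All 71 members stayed higher in Wov in each of these fits, which the choice of members fixes. The median fitted log2 fold change, 5.13, was 4.88 to 5.31 without each library, and 2.46 and 4.42 with limma, whose pseudocounts shrink low values. With a Wov minimum of 10 CPM or a WT limit of 0.5 CPM, the median length was 1838 or 1547 bases against 1670, and the members at least 2-fold apart between the Wov libraries were 27.3% or 21.6% against 21.1%. Without the most abundant member, the mean share of reads held by members went from 0.0977% to 0.0889% in Wov and from 0.00267% to 0.00266% in WT. Depth limits the WT levels, which rest on at most 11 reads per library.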
